A study of Schizosaccharomyces pombe with 12 samples.

Results

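Transcript levels were followed over time for 5 protein-coding genes of the fission yeast *Schizosaccharomyces pombe*, namely *SPAC6C3.03c*, *SPCC70.08c*, *SPAC9G1.14*, *grt1* (SPBPB8B6.04c) and *aes1* (SPBPB21E7.07). They were chosen, by name, among the features whose average at 8 h was less than 1/2 of their average at 2 h. The 5 are part of 6988 annotated features, of which 5156 are coding (a class that here takes in pseudogenes and transposons) and 1832 noncoding. The ratio itself was met by 208 features at any level and by 17 coding features with an average of 100 or more at either time. The ratio of 8 h to 2 h is therefore how the genes were picked and is given below as a description.

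All cells were of 1 wild-type strain, AGP72, of genotype *h-*. The 0 h libraries came from log-phase cells in YES, a rich medium made from yeast extract. The others came from cells that had spent 2, 4 or 8 h in ePMGT(+PO4), which is a defined medium with phosphate. There were 3 libraries for each of the 4 times. The study's strain list does not name AGP72, but its footnote gives all strains *leu1-32*, *ura4-D18*, *his3-D1* and a mutant *ade6* allele. If the footnote covers AGP72, every time point shares them. The study made these libraries to learn how far the change of medium alone, with phosphate supplied, alters the transcriptome. No YES culture of 2, 4 or 8 h was analysed here, so medium, handling and time in culture cannot be told apart.

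The deposited values are the authors' averages of normalized reads over the 3 libraries of a time. No value per library was analysed here, so no spread between replicates, and no test, stands behind any difference below. A poly(A)+ RNA average does not separate a lower level per cell from fewer cells that carry the RNA. Ratios are given as the log2 of (average + 1) between 2 times, and "past 2-fold" means a log2 of 1 or more in size with an average of 100 or more at the higher time. The averages of a time summed to between 16787800 (2 h) and 17641000 (4 h) normalized reads. The lowest averages showed what 1 read was worth: between 0.264 and 0.387 of an average, depending on the library, and all 60, 53, 63 and 65 features above 0 and under 0.5 at the 4 times had exactly 1 of 3 such values. The M-cell markers looked at for the *h-* label were *mfm1*, *mfm2*, *mfm3*, *mam1*, *mam2* and *mat1-Mc*. They summed to 1967, 2044, 2134 and 3869 normalized reads at 0, 2, 4 and 8 h. Most of the sum came from *mfm2* (730, 736, 784 and 1675) and *mam1* (1080, 1163, 1207 and 1876). *mfm1* averaged between 18.6 and 53.9, *mfm3* between 11.9 and 21.3, and *mam2* between 104 and 243. *mat1-Mc* was listed at 0 at all 4 times. Of the genes with mutant alleles, *ura4* was also listed at 0 throughout, while *his3* was not, with averages of 281, 212, 163 and 201 normalized reads at 0, 2, 4 and 8 h in strains given as *his3-D1*. The cause was not tested. The P-cell genes *map2* and *map3* summed to 505, 564, 524 and 520, with *mat1-Pc* not matched by name. *map2* averaged between 128 and 221 and *map3* between 343 and 392. Averages are not per length, so the M and P values do not by themselves decide the *h-* label. The part of these markers in the results below was not tested.

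The genes stand for quite different kinds of product. *grt1* encodes a DNA-binding transcription factor, a protein that binds DNA and regulates transcription of other genes. *SPCC70.08c* is annotated as a methyltransferase, an enzyme class that moves a methyl group, usually from S-adenosylmethionine, to another molecule. *aes1* encodes a member of the PhzF family, named after a bacterial enzyme of phenazine synthesis. *SPAC6C3.03c* is annotated as a protein specific to *S. pombe*, and *SPAC9G1.14* as a dubious gene, a reading frame that may not encode a protein. Levels of different genes are not compared with each other, since the averages are not per length.

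*grt1*, the transcription factor, was the only one of the 5 with its highest average in YES. Its averages were 354, 261, 212 and 107 normalized reads at 0, 2, 4 and 8 h. Each average was lower than the one before it, and the 8 h average was 3.29-fold lower than the 0 h average. On the log2 scale its ratios to 0 h were -0.44 (2 h), -0.73 (4 h) and -1.71 (8 h). The ratio of 4 h over 2 h was -0.30 and that of 8 h over 4 h was -0.98, so that 23.2% of its log2 difference between 8 h and 2 h was present at 4 h. The 2 h ratio was already outside the central 95% of coding features, which lay between -0.34 and 0.67, and ranked the 59th lowest of 4807.

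*SPCC70.08c*, the methyltransferase, had averages of 1943, 1988, 1047 and 657 at 0, 2, 4 and 8 h. The 0 h and 2 h averages were nearly equal, with a log2 ratio of 0.03 at 2 h over 0 h. It then stood at -0.89 at 4 h and -1.56 at 8 h over 0 h. It was the member with the lowest ratio of 4 h over 2 h, at -0.92, the 10th lowest of 4805 coding features. The ratio of 4 h over 2 h shares the 2 h average with the choice of genes. At 4 h, 57.9% of its log2 difference between 8 h and 2 h was present. The ratio of 8 h over 4 h was -0.67.

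*SPAC6C3.03c*, the species-specific gene, was listed at 141, 165, 102 and 37.3 normalized reads at 0, 2, 4 and 8 h. It had the lowest ratio of 8 h over 4 h of all 4807 coding features in that comparison, -1.43, or 36.6% of the 4 h average. That ratio shares the 8 h average with the choice of genes. The gene passed the level filter there only through its 4 h average of 102. Over 0 h the ratios were 0.22 at 2 h, -0.46 at 4 h and -1.89 at 8 h. At 4 h, 32.5% of its log2 difference between 8 h and 2 h was present. This gene had the fewest reads of the 5. By the worth of 1 read, its 8 h average stood for between 105 and 141 reads over the 3 libraries, whose counting error alone is up to 9.76%, and its 4 h average for 279 to 324 reads.

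*SPAC9G1.14*, the dubious gene, had a like course at a like depth. Its averages were 149, 172, 125 and 56.1 normalized reads at 0, 2, 4 and 8 h. The ratios over 0 h were 0.20 at 2 h, -0.25 at 4 h and -1.39 at 8 h. Its ratio of 8 h over 4 h, -1.14, was the second lowest of the 4807 coding features. That ratio too shares the 8 h average with the choice of genes, and the gene passed the filter only through its 4 h average of 125. The 4 h ratio over 2 h was -0.46. The 8 h average stood for 158 to 212 reads, with a counting error of up to 7.96%.

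*aes1*, the PhzF-family gene, had a different course. Its averages were 2318, 6430, 4398 and 2682 at 0, 2, 4 and 8 h, so that 2 h was a peak and 8 h lay close to the level in YES. The 2 h average was 2.77 times the 0 h average and the 4 h average 1.90 times it, while the 8 h average was 1.16 times it. On the log2 scale these were 1.47, 0.92 and 0.21. The 2 h ratio was the 41st highest of 4807 coding features, while the 8 h ratio lay well inside the central 95%, -0.53 to 0.96. Both ratios use averages on which the genes were chosen. For *aes1*, then, the low ratio of 8 h to 2 h that chose it goes with a high 2 h average, and for the other 4 with an 8 h average below that in YES.

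**Figure D1:**
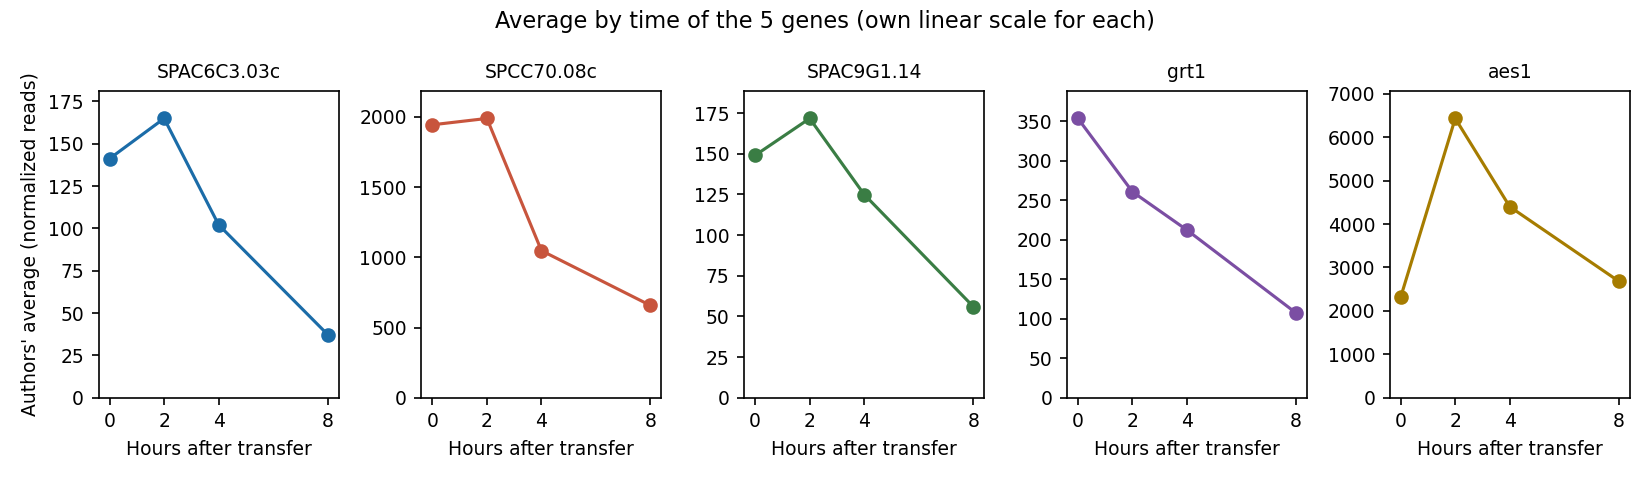
The authors' average in normalized reads (vertical axis, linear from 0, with a scale of its own in each panel) against hours after transfer from YES for the 5 genes, where each point is the average of 3 libraries and no error is known. *SPAC6C3.03c*, *SPCC70.08c* and *SPAC9G1.14* are highest at 2 h and lowest at 8 h, *grt1* is highest at 0 h (354) and lowest at 8 h (107), and *aes1* peaks at 2 h (6430) and is at 2682 at 8 h, near its 0 h average of 2318.

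Set against all coding features, the comparisons with 0 h put 1 member past 2-fold higher at 2 h, *aes1*, where 1.5% of coding features were. At 4 h none of the 5 was past 2-fold in either direction, where 1.52% of coding features were past it higher and 0.125% lower. At 8 h 4 members, all but *aes1*, were past 2-fold lower, where 0.312% of coding features were (15 of 4814). None was past 2-fold higher at 8 h, where 2.29% were. Their ranks from the lowest were 2, 3, 5 and 7, for *SPAC6C3.03c*, *grt1*, *SPCC70.08c* and *SPAC9G1.14* in that order. The 8 h comparison uses the same 8 h average as the choice of genes, and the 2 h comparison uses the same 2 h average. All 3 comparisons share the 0 h libraries. All 5 genes passed the level filter in each comparison, but *SPAC6C3.03c* and *SPAC9G1.14* passed it at 8 h only through the earlier time, since their 8 h averages were under 100.

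**Figure D2:**
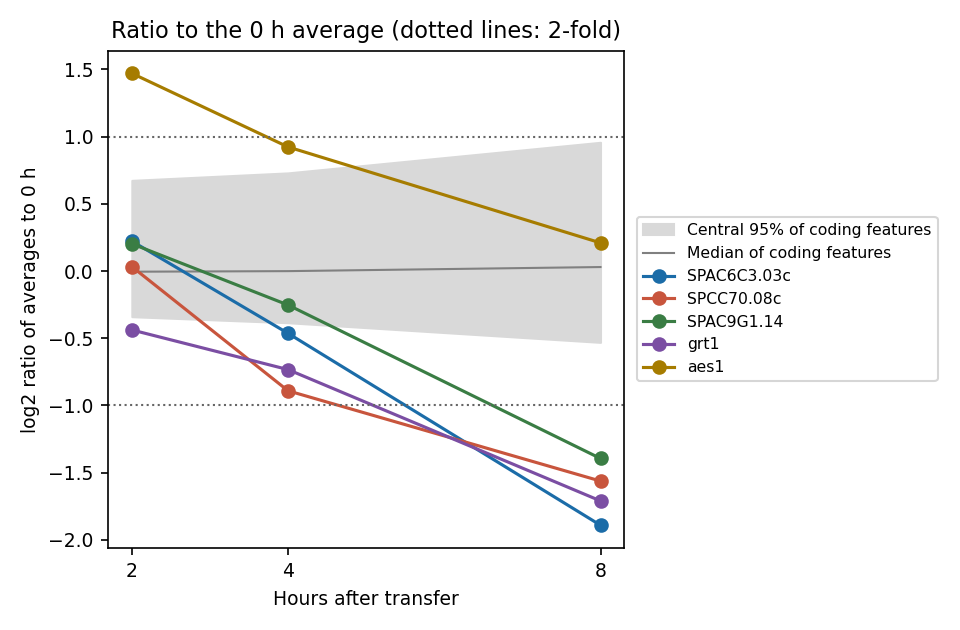
The log2 ratio of the average at 2, 4 and 8 h to that at 0 h (vertical axis) for the 5 genes, with the median and central 95% of coding features in grey and dotted lines at 2-fold. *aes1* comes down to 0.21 at 8 h after 1.47 at 2 h, and the other 4 lie between -1.39 and -1.89 at 8 h, below the grey band.

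Within ePMGT(+PO4), the averages of all 5 genes were lower at the end of each interval than at its start. The interval from 4 h to 8 h is longer than that from 2 h to 4 h, and the ratios are not per hour. In the 4 h over 2 h comparison all 5 ratios were below 0, between -0.30 and -0.92, and none was past 2-fold, where 0.125% of coding features were past it lower. In the 8 h over 4 h comparison the 5 ratios were between -0.67 and -1.43. Here 2 members, *SPAC6C3.03c* and *SPAC9G1.14*, were past 2-fold lower, where 0.0416% of coding features were, and these 2 were the only ones of 4807 at the deposited scale. With the averages of each time scaled to equal sums, the 4 h average of *SPAC6C3.03c* came under the level filter and 1 was left. *grt1*, *aes1* and *SPCC70.08c* had ranks of 3, 5 and 6 from the lowest. Of 4794 coding features measured in both intervals, 5 had ratios at or below -0.30 in the first and at or below -0.67 in the second, and these were the 5 genes described here. Those limits were set by the members. The first interval shares the 2 h average with the choice of genes and the second shares the 8 h average. The 2 ratios together make up the ratio of the choice. Low ratios in both are thus partly built in, and the count is a description. Over both intervals together, the ratios of 8 h to 2 h were -2.11 for *SPAC6C3.03c*, -1.60 for *SPAC9G1.14* and *SPCC70.08c*, -1.27 for *grt1* and -1.26 for *aes1*, and 0.353% of coding features were past 2-fold lower.

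**Figure D3:**
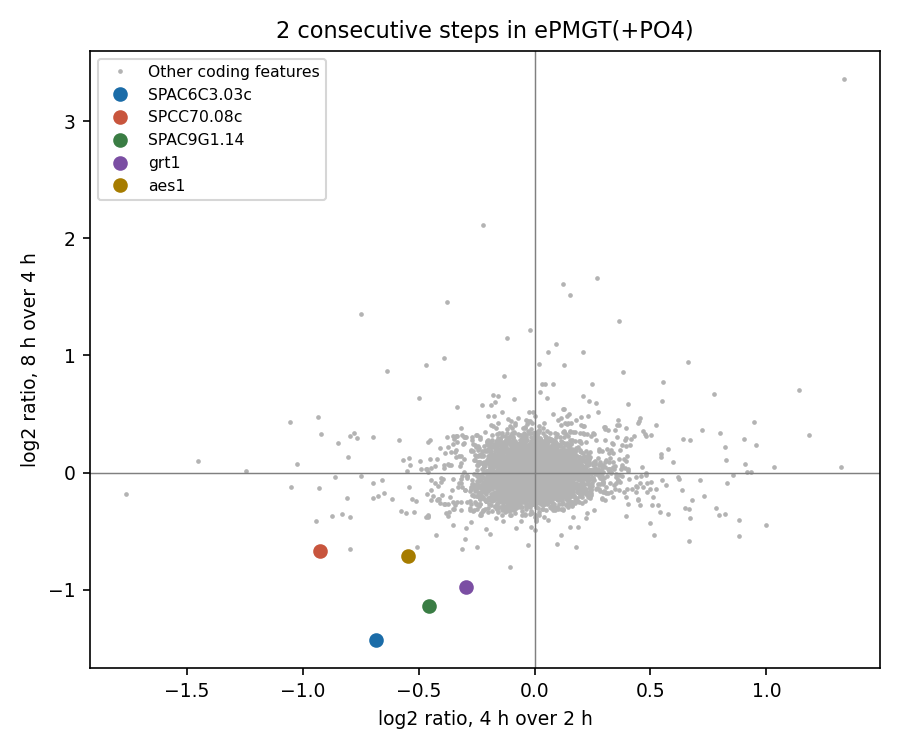
The log2 ratio of 8 h over 4 h (vertical axis) against that of 4 h over 2 h (horizontal axis) for coding features with an average of 100 or more at any time, in grey, and for the 5 genes, in colour. The 5 genes lie at the lower left, between -0.30 and -0.92 across and between -0.67 and -1.43 down. The axes share the 4 h average and so are not independent, and together they make up the ratio by which the genes were chosen.

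At the threshold of the choice, the coding features just inside were the Tf2-type retrotransposon *Tf2-10* and the mitochondrial D-glutamate cyclase gene *dgc1*, whose 8 h averages were 0.49 and 0.48 of those at 2 h. Just outside were *SPBC1271.08c* and *SPBC83.12*, both specific to *S. pombe*, at 0.51 each. The 5 genes lay between 0.23 for *SPAC6C3.03c* and 0.42 for *aes1*. The 12 other coding features that met the ratio at this level were led by the urea transporter gene *SPBC23G7.13c* (0.26), the N-acetyltransferase gene *SPBC1271.07c* (0.36), the retrotransposon *Tf2-11* (0.39), the amino acid transporter gene *isp5* (0.39) and the copper transporter gene *mfc1* (0.42). Tf2 elements have near-identical copies in the genome, so the values of *Tf2-10* and *Tf2-11* are uncertain. Among the 12 others, 6 were past 2-fold higher at 2 h over 0 h, as *aes1* was, and 3 were past 2-fold lower at 8 h over 0 h, as the other 4 members were.

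3 of the genes have an antisense RNA, a transcript of the opposite strand, that the files name after them. For *SPCC70.08c* this RNA, SPNCRNA.1292, had averages of 228, 228, 272 and 376 normalized reads at 0, 2, 4 and 8 h. It was thus highest when its sense partner was lowest, and amounted to 11.7%, 11.5%, 26.0% and 57.2% of the *SPCC70.08c* average at the 4 times. Its log2 ratio of 8 h over 2 h was 0.72, where the median of 299 antisense RNAs was -0.11, and 2.01% of them had a higher ratio.

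The antisense RNA of *SPAC6C3.03c*, SPNCRNA.813, differed less between times, at 89.3, 83.7, 69.8 and 70.3 normalized reads at 0, 2, 4 and 8 h. Its average was 188% of the *SPAC6C3.03c* average at 8 h, against between 50.7% and 68.3% at the 3 earlier times. As neither average is per length, these shares are compared between times only. The antisense RNA of *grt1*, SPNCRNA.1301, kept nearly the proportion of *grt1* itself, at 22.9%, 23.4%, 22.1% and 25.6%. Its averages were 81.0, 61.0, 46.9 and 27.5 normalized reads, a log2 ratio of -1.53 at 8 h over 0 h. The kit kept strand, but the sources used here do not say whether the counting used it, so reads of the 2 strands may not be fully separated. With sense and antisense averages added, the log2 ratios of 8 h over 0 h were -1.09 for *SPAC6C3.03c*, -1.07 for *SPCC70.08c* and -1.68 for *grt1*.

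**Figure D4:**
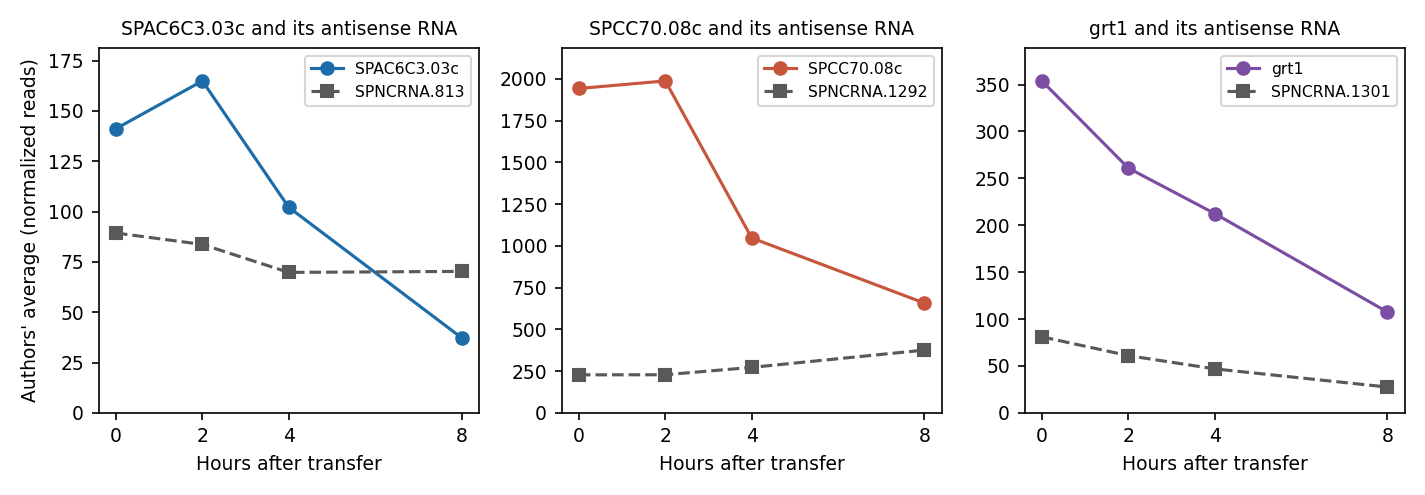
The authors' average in normalized reads (vertical axis, linear from 0) against hours after transfer for 3 genes (solid lines) and the antisense RNA named after each (dashed lines). SPNCRNA.1292 is at 376 at 8 h against 228 at 0 h, SPNCRNA.813 is at 70.3 at 8 h against 89.3 at 0 h, and SPNCRNA.1301 is at 27.5 at 8 h against 81.0 at 0 h. Lines are to be compared between times and not with each other, since averages are not per length.

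By the order of genes in the RefSeq annotation of a later assembly, ASM294v3, 3 of the 5 lie near a chromosome end. Counting coding features, *grt1* is the sixteenth and *aes1* the 27th from 1 end of chromosome II, and *SPCC70.08c* is the 30th from an end of chromosome III. Of all coding features in that annotation, 180 of 5139, or 3.50%, are within 30 places of an end. That limit is the place of *SPCC70.08c* itself, set after the values were seen, so the share is a description. *SPAC6C3.03c* and *SPAC9G1.14* lie in the interior of chromosome I. For all 5 genes, 0 stretches of 51 bases, the read length, of their annotated exons were found elsewhere in that assembly.

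*SPAC6C3.03c* lies between *mix17*, which encodes a mitochondrial protein, and *cit1*, which encodes citrate synthase of the tricarboxylic acid cycle. Neither shared its course. The averages of *mix17* were 7627, 6631, 7387 and 7589 at 0, 2, 4 and 8 h, and those of *cit1* were 12217, 14920, 13781 and 12196. Likewise the neighbours of *SPCC70.08c*, the thymidylate kinase gene *tmp1* and the fungal gene *mug9*, stood at 0.21 and 0.04 at 8 h over 0 h. *mug9* averaged between 73.0 and 94.7 normalized reads, under the level filter.

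*SPAC9G1.14* overlaps *wis4* on the opposite strand. *wis4* encodes a MAP kinase kinase kinase of the stress-activated pathway, and its averages were 4928, 5600, 5067 and 4738 at 0, 2, 4 and 8 h. The *SPAC9G1.14* average was 3.07% of that of *wis4* at 2 h, 2.47% at 4 h and 1.18% at 8 h. Its values are uncertain, since reads of the 2 strands may not be fully told apart, and the part of *wis4* reads in them was not tested. The ratio of 8 h over 4 h was -0.10 for *wis4*, against -1.14 for *SPAC9G1.14*. The neighbour on the other side, the ubiquitin ligase gene *gid4*, had averages of 335, 406, 438 and 443.

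*grt1* is flanked by genes that averaged under 100 and that, like *grt1*, had lower averages at 8 h than at 0 h and 4 h. Of coding features that passed the level filter, 44.3% were lower at 8 h than at 0 h, and 47.6% lower at 8 h than at 4 h. The urea transporter gene *SPBPB8B6.02c* had averages of 16.2, 13.7, 13.2 and 8.68 at 0, 2, 4 and 8 h, and *fah1*, a fatty acid amide hydrolase gene that overlaps *grt1* on the opposite strand, had 33.5, 28.8, 32.2 and 21.4. The log2 ratio of 4 h over 2 h was -0.30 for *grt1*, -0.05 for *SPBPB8B6.02c* and 0.15 for *fah1*. The L-asparaginase gene *SPBPB8B6.05c*, next beyond *fah1* and named after its values were seen, had 1215, 857, 810 and 637, a log2 ratio of -0.93 at 8 h over 0 h. Next after it, the fluoride channel gene *fex2*, under the level filter, stood at -0.18 in that comparison. The enolase gene *eno102*, after *fex2*, stood at 0.43.

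The next coding features on either side of *aes1* are both pseudogenes. The RefSeq annotation also places SPNCRNA.4541 and SPNCRNA.4542 opposite *aes1*, and SPNCRNA.2882 opposite *SPAC9G1.14*, none of which was analysed here. SPBPB21E7.06 averaged at most 2.22 normalized reads, but SPBPB21E7.08, on the same strand, had averages of 558, 3033, 4978 and 4775 at 0, 2, 4 and 8 h. It was thus higher at 2 h, as *aes1* was, yet had a log2 ratio of 0.65 at 8 h over 2 h, against -1.26 for *aes1*. Among the first 40 coding features at this end of chromosome II, a range chosen after the values were seen, 15 passed the level filter at 8 h over 0 h, of which 4 were past 2-fold higher and 2 lower, where 2.29% and 0.312% of all coding features were. The 2 lower were *grt1* and the transporter pseudogene SPBPB10D8.03 (113, 64.2, 46.4 and 35.9).

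Likeness of course was measured as the Euclidean distance between log2 ratios to 0 h at 2, 4 and 8 h, over 4791 other coding features averaging 100 or more and over 4 averages each. Of the features named below, *vht1*, *aca1*, *Tf2-11*, *SPBC1271.07c* and *dgc1* also met the ratio of the choice, so part of their nearness is built in. The smallest distance for *SPAC6C3.03c*, *SPCC70.08c* and *grt1* alike was to *vht1*, the plasma membrane transporter of biotin (vitamin H), at 0.74, 0.36 and 0.42. The *vht1* averages were 15242, 13149, 9246 and 5962 at 0, 2, 4 and 8 h. Next for both *SPAC6C3.03c* and *SPCC70.08c* was *aca1*, which encodes an acetyltransferase of the proline analog L-azetidine-2-carboxylic acid, with averages of 1630, 1686, 970 and 747. The retrotransposon *Tf2-11* was the third for *SPAC6C3.03c*, and *fau1*, a folate-metabolism gene, the third for *SPCC70.08c*.

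For *grt1*, the copper transporter subunit gene *ctr5* was the second, with averages of 2285, 1465, 1098 and 936, and *spo6*, which encodes a regulatory subunit of a meiotic kinase, was the third. For *SPAC9G1.14* the order was *Tf2-11*, *SPBC83.12* and *SPBC1271.07c*, at distances of 0.53 to 0.55. The course of *aes1* was most like those of *dgc1* (0.50), the vitamin B6 transporter gene *SPCC576.17c* (0.55) and the carboxylic acid transporter gene *SPAC11D3.18c* (0.55). Of these, *dgc1* had averages of 261, 680, 356 and 325 at 0, 2, 4 and 8 h, again with a peak at 2 h.

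Among themselves, 4 of the genes were 0.52 to 0.86 apart, with the shortest distance between *SPCC70.08c* and *grt1*. *aes1* was 2.36 to 3.17 from each of them, farther than at least 4624 of the 4791 other coding features were from the gene compared. Since all 5 were chosen on 1 ratio, part of the nearness of the 4 is built in.

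Other genes of the same kinds, taken by the words of their product, mostly did not share these courses. Of 126 coding features whose product names a transcription factor, 122 passed the level filter at 8 h over 0 h, of which 2 were past 2-fold higher and 1, *grt1*, past it lower. Over all coding features these shares were 2.29% (110 of 4814) and 0.312% (15 of 4814). Their median log2 ratio was 0.09, beside 0.03 for all coding features. The one with the largest ratio was *cbf12*, of the CSL family of DNA-binding factors, with 331, 713, 1064 and 1224 normalized reads at 0, 2, 4 and 8 h. After *grt1* the lowest was *sfc2*, the gene of the RNA polymerase III factor TFIIIA, at -0.47.

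Of 98 methyltransferases, 94 passed the filter at 8 h over 0 h, with 3 past 2-fold higher and 1, *SPCC70.08c*, lower. The median log2 ratio of the 94 was -0.14, beside 0.03 for all coding features. The shares over all coding features are again 2.29% higher and 0.312% lower. The largest ratio, 2.87, was that of *cmt2*, an O-methyltransferase gene that lies 3 coding features from *aes1* and had averages of 57.4, 263, 239 and 425. The next lowest after *SPCC70.08c* was *efm2*, a translation elongation factor methyltransferase gene, at -0.68.

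Of 347 features with a dubious, orphan, unknown or species-specific product, 240 passed the filter at 8 h over 0 h. Of these, 10 were past 2-fold higher and 2 lower, beside 2.29% and 0.312% of all coding features. The median log2 ratio of the 240 was 0.09, beside 0.03 for all coding features. The 2 lower were *SPAC6C3.03c* and *SPAC9G1.14*, and the largest ratio, 4.13, was that of *SPAPJ695.02*, with 45.2, 243, 264 and 808 normalized reads. The PhzF family has 2 members in the files. The other one, *SPAC186.06*, was under the filter at all 4 times. Its averages were 37.9, 7.70 and 5.29 normalized reads at 2, 4 and 8 h, with log2 ratios to 0 h of 0.89, -1.27 and -1.74. Its highest average was at 2 h, as that of *aes1* was, but its 8 h average lay below that at 0 h, while that of *aes1* did not. The log2 ratio of 8 h over 2 h of *SPAC186.06* was -2.63, so it too met the ratio of the choice, at low averages.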

How the data were processed

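Poly(A)+ RNA of 12 libraries, 3 at each of 4 times, was sequenced as paired 51-base reads with a stranded kit. Per the labels and the methods of the study, the authors aligned reads to assembly ASM294v2 (HISAT2 2.1.0), converted alignments with SAMtools, counted reads over exons with HTSeq 0.10.0 and set each later time against 0 h in DESeq2 (version not given in the sources used here). Each of the 3 deposited tables holds the authors' averages of normalized reads per time, a signal of counts divided by size factors and averaged over libraries. The tables also hold an average over the authors' whole fit, log2 fold changes, standard errors, test statistics and p-values of the authors' comparisons, none of which was used. Of the 4 averages of each feature, only that at 0 h was given more than once, and its values were the same.

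From the averages, log2 ratios of (average + 1) were computed in Python 3.11.15 with pandas 2.3.3, NumPy 2.4.6 and Matplotlib 3.10.9 for 6 pairs of times. A feature entered a pair when its higher average was 100 or more, the level the study used. Averages carry no replicates, so no test was made. The counting of features past 2-fold was tested on simulated data, for features with higher 0 h averages than *SPAC6C3.03c* and *SPAC9G1.14*. The folds and the spread between libraries were set in the simulation. It checks the counting alone and not the values of those genes. The worth of 1 read was taken as the 3 commonest averages under 0.5 at each time, and the reads behind an average were bounded by the lowest and highest of these. Counting errors cover the counting of reads only. Depth per library is known only through these values.

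Gene lists were made from the words of the product text in the files. Besides the 5 genes, the text names the 3 coding features of the most like course for each, neighbours, overlapping and antisense features, the coding features nearest the threshold of the choice and the 5 lowest others, and 2 features of each list with the largest ratio of 8 h over 0 h. *sfc2*, *efm2*, *SPBPB8B6.05c*, *fex2*, *eno102* and SPBPB10D8.03 were named after their values were seen. So were the range at the end of chromosome II, the limits for both intervals and the sums of sense and antisense averages. The 5 genes and the lists were chosen with earlier results of these data known. Gene names and gene order were those of RefSeq for ASM294v3, in which 6836 of 6988 features were found. No positions or sequences are given, since the authors used another assembly. Searches for promoter and protein patterns were not run. Alternatives were other pseudocounts, scalings, level filters and a correlation in place of the distance.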

Additional observations from a re-analysis of the deposited data

How the results depend on the processing

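No paired analysis was possible because the deposited columns hold the average of each time and carry no replicate numbers, and leaving out each replicate in turn was not run for the same reason. The log2 ratios of the 5 genes between times (30 values) kept their sign under pseudocounts of 0 and 10, equal sums of averages and centring on the median ratio, and moved by at most 0.03, 0.23, 0.07 and 0.03 in that order. A pseudocount of 10 moved 6 of them by over 0.1, all of genes with few reads: *SPAC6C3.03c* stood at -1.68 at 8 h over 0 h, -1.24 at 8 h over 4 h and -1.89 at 8 h over 2 h, and *SPAC9G1.14* at -1.27, -1.03 and -1.46, all still past 2-fold. With equal sums, 1 coding feature in place of 2 was past 2-fold lower at 8 h over 4 h, since the 4 h average of *SPAC6C3.03c*, 102 as deposited, came under 100. With a filter of 10 in place of 100, coding features past 2-fold lower numbered 5 in place of 2 at 2 h over 0 h, 25 in place of 15 at 8 h over 0 h and 7 in place of 2 at 8 h over 4 h, and those higher 12 in place of 4 at 4 h over 2 h and 24 in place of 13 at 8 h over 4 h. With no filter, those lower numbered 13 at 2 h over 0 h, 13 at 4 h over 0 h (6 with the filter), 29 at 8 h over 0 h, 17 at 4 h over 2 h (6 with the filter), 12 at 8 h over 4 h and 30 at 8 h over 2 h (17 with the filter), and those higher 21 at 4 h over 2 h, 30 at 8 h over 4 h and 53 at 8 h over 2 h (29 with the filter). Ranking likeness by Pearson correlation of the 4 log2 averages kept 0 of the 3 named features for each of the 5 genes, so those names depend on the measure. The depth limits *SPAC6C3.03c* and *SPAC9G1.14* most, with as few as 105 and 158 reads behind their 8 h averages.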

Other observations

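Of coding features with an average of 100 or more at either time, 0.353% (17 of 4815) met the low ratio of 8 h to 2 h. It was also met by 22 noncoding features at that level, out of 1832 noncoding features at any level. The number of noncoding features that reach that level is not given here, so the 2 counts are not to be compared. The lowest of the 22 was the antisense RNA of *SPBC660.08*, with averages of 63.6, 109, 55.3 and 22.6 normalized reads at 0, 2, 4 and 8 h. Next came the antisense RNA of the endocytosis gene *end4*, with 721, 621, 362 and 183, and the intergenic RNA SPNCRNA.1190, with 62.2, 104, 88.5 and 35.1. The intergenic RNA SPNCRNA.863 was listed at 3945, 4775, 2365 and 1765. The list also holds the small nucleolar RNAs *snoU24b*, *snoZ16* and *snR3*, which guide modification of ribosomal RNA, and whose 8 h averages were 0.43, 0.45 and 0.48 of those at 2 h. The libraries were of poly(A)+ RNA, so the averages of these 3 need not follow the whole level of such RNAs. The noncoding features of this paragraph were named after their values were seen.

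The remaining coding features that met the ratio differ in course. The extracellular 5'-nucleotidase gene *SPAC1039.02* had averages of 4231, 36168, 15272 and 15440 at 0, 2, 4 and 8 h, and *isp5*, which encodes an amino acid transporter, had 4218, 1540 and 1645 at 2, 4 and 8 h, with a log2 ratio of 4.39 at 2 h over 0 h. In both, the 8 h average lay above that at 4 h. *ecl1*, the extender of chronological lifespan gene, had 838, 1241, 599 and 549, and *mmf2*, a mitochondrial matrix protein gene, had 99.0, 452, 254 and 199.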
